A study of Homo sapiens with 72 samples.

Results

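U2OS cells exposed to triptolide were compared with U2OS cells exposed to homoharringtonine, each at 100 nM, the lowest dose given to both compounds. The 6 wells were chosen by their titles, 3 coded JAA804 (triptolide) and 3 coded LEE837 (homoharringtonine), out of 72 wells of bulk RNA sequencing in the series. U2OS is an established human osteosarcoma line. It was grown in 24-well plates and treated for 12 h, and 18 wells that received only the solvent DMSO give the direction of each change. The 3 wells of each compound at 1000 nM were used only to ask whether the contrast between the compounds held at the next dose. The labels do not say whether the replicate wells were separate cultures, so each p-value measures the spread between these wells.

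Triptolide is a plant diterpenoid that binds XPB, the ATPase and translocase encoded by ERCC3 in the general transcription factor TFIIH, and so blocks the start of transcription by RNA polymerase II. Homoharringtonine is a plant alkaloid that binds the peptidyl transferase centre of the ribosome and blocks the first steps of elongation. Messenger RNAs of immediate early genes, NF-kB feedback genes and cytokines are known for short half-lives and AU-rich tails, while those of ribosomal proteins, collagens and metabolic enzymes tend to be long-lived.

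Immediate early genes and NF-kB genes are among the lists described below, and promoter elements by which these genes are known are shown for some of them. Each window is 30 bases of the RefSeq promoter (GRCh38.p14) on the strand of the gene, with the bases that matched a motif in capitals. The first 3 hold a CArG box, the element bound by serum response factor. The next 4 match a kappaB consensus, the element bound by NF-kB dimers, and the last holds the cyclic AMP response element TGACGTCA.
EGR1, chr5:138465364-138465393, plus strand: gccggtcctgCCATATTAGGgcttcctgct
EGR1, chr5:138465386-138465415, plus strand: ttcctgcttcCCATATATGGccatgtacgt
EGR2, chr10:62816418-62816447, minus strand: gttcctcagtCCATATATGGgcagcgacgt
NFKBIA, chr14:35404811-35404840, minus strand: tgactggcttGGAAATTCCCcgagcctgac
BIRC3, chr11:102317275-102317304, plus strand: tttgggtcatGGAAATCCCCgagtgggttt
TNFAIP3, chr6:137867194-137867223, plus strand: aaagtcccgtGGAAATCCCCgggcctacaa
NFKB2, chr10:102395674-102395703, plus strand: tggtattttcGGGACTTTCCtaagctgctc
MAFF, chr22:38201929-38201958, plus strand: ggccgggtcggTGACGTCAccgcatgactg

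The motifs were searched on both strands of windows from 250 bases before to 50 bases after each start site. A kappaB match was found for 11 of the 14 NF-kB pathway genes with a RefSeq promoter (78.6%), against 11.3% of all 35116 promoters and 17.5% of the 11658 tested genes that have one. A CArG box was found for 3 of 20 immediate early genes (15%), EGR1, EGR2 and SRF, against 1.29% of all promoters and 1.55% of the tested genes. SRF was not called between the compounds (log2 fold change 0.73). The cyclic AMP response element was found for 2 of the 20, MAFF and JUND, and homoharringtonine did not raise JUND over DMSO (-0.79). Over all called genes a kappaB match was present for 16.6% of genes higher with homoharringtonine and 18.1% of genes higher with triptolide, and a CArG box for 1.53% and 1.66%. The cyclic AMP response element was found for 4.96% of genes higher with homoharringtonine, 2.24% of genes higher with triptolide, 3.77% of all tested genes and 1.85% of all promoters. A match describes the letters of the window and not binding.

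One library stood apart. Triptolide replicate 2 held 70767 expected counts over genes, against 34502864 and 10514272 in the other triptolide wells, 34975133 to 41740702 in the homoharringtonine wells and 460014 to 56381685 in the DMSO wells. A single count in it equals 14.1 CPM (counts per 1000000 counts of the library, the unit of every level below unless another is named), so a gene listed there at 0 or 14.1 is at or near its limit. Over genes its log2 CPM correlated at 0.798 with each of the other triptolide wells, which correlated at 0.983 with each other. The counts over all genes are therefore also given without it. Without it the numbers called between the compounds stayed the same in 24 of the 44 gene lists and changed by at most 3 members in the other 20. Single lists are given again below where such a count moved by more than 1.5 times. Counts against DMSO moved further in some lists. Without it triptolide raised 30 in place of 16 of the 79 cytosolic ribosomal protein genes, and 7 in place of 4 of the 20 endoplasmic reticulum chaperones. The identity markers VIM, SPARC, FN1, CD44, THY1, ENG and RUNX2 were all measured, while TWIST1 (mean 0.00827) and NT5E (mean 0.113) did not pass the filter on low counts. Of these 9 markers, 3 were called higher with triptolide (SPARC, THY1 and ENG) and 0 with homoharringtonine. The 13 markers of blood, liver, epithelial, endothelial and glial cells summed to 7.76 to 14.1 in the triptolide wells, 6.33 to 7.78 in the homoharringtonine wells and 2.17 to 4.50 in the DMSO wells. The 14.1 equals 1 count in triptolide replicate 2, and the 2.17 equals 1 count in the shallow DMSO replicate 10. CD3E was at 0 in all 6 compound wells, 4 of the 13 were tested, and only HBA1 was called, higher with homoharringtonine (median -0.26). Without triptolide replicate 2, 8 were tested, 2 were higher with triptolide and 1 with homoharringtonine, and the median was 1.20. Against DMSO, triptolide raised 5 of the 8 tested (PTPRC, APOA1, HBA1, PECAM1 and GFAP). The part of such RNA in the results was not tested.

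The compounds gave unlike transcriptomes at this dose. Of 16468 genes tested, edgeR called 3370 in favour of triptolide and 4517 in favour of homoharringtonine, 47.9% in all, at a Benjamini-Hochberg adjusted p under 0.05 and a log2 fold change beyond 1 (20.5% and 27.4% by direction). Without triptolide replicate 2 the counts were 3678 and 4682 of 17772 genes (47% in all, 20.7% and 26.3% by direction). The 2 deeper triptolide wells and the 3 homoharringtonine wells did not overlap in CPM for 76.6% of the tested genes. The median log2 fold change over all tested genes, triptolide minus homoharringtonine, was -0.10, and changes are relative to the bulk of the transcriptome after TMM scaling. Scaled by library size alone that median was -0.29, with 34.7% of called genes higher with triptolide, and scaled to the mitochondrially encoded mRNAs it was -1.75, when 3.62% of called genes were higher with triptolide in place of 42.7%. In bulk RNA, fewer cells and less RNA per cell cannot be told apart.

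The mitochondrially encoded mRNAs, which a separate mitochondrial polymerase makes, took unequal shares of the libraries. They made up 0.544%, 0.518% and 0.625% of all counts in the triptolide wells and 0.221%, 0.227% and 0.183% in the homoharringtonine wells, against 0.138% to 0.367% in DMSO with a median of 0.235%. All triptolide wells lay above every DMSO well, and the homoharringtonine wells lay within the DMSO range. In TPM the shares were 0.904%, 0.835% and 1.19% with triptolide against 0.253% to 0.965% in DMSO, so 2 of the 3 triptolide wells lay within the DMSO range on that scale. The means were 0.563 ± 0.0557% and 0.210 ± 0.0237% (SD, n = 3), a ratio of 2.67. The exact two-sided permutation p was 0.1, the smallest that 3 wells against 3 allow. The 95% Wilson interval of the share in the shallow well, 0.468% to 0.574%, also lay above the DMSO range, and it covers counting error only. Of the 13 mRNAs, 12 were called higher with triptolide than with homoharringtonine, with a median log2 fold change of 1.73. They are the reference of the mitochondrial scaling, which therefore does not test them. Against DMSO, edgeR called 32.4% of the genes tested for triptolide (11.4% raised, 20.9% lowered) and 34.9% for homoharringtonine (15.6% raised, 19.3% lowered). Of the calls for triptolide 35.3% were rises (16.3% scaled by library size and 1.01% by mitochondrially encoded mRNAs), and of those for homoharringtonine 44.7% (32.4% scaled by library size). All 13 were raised by triptolide and none was called for homoharringtonine.

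**Figure D1:**
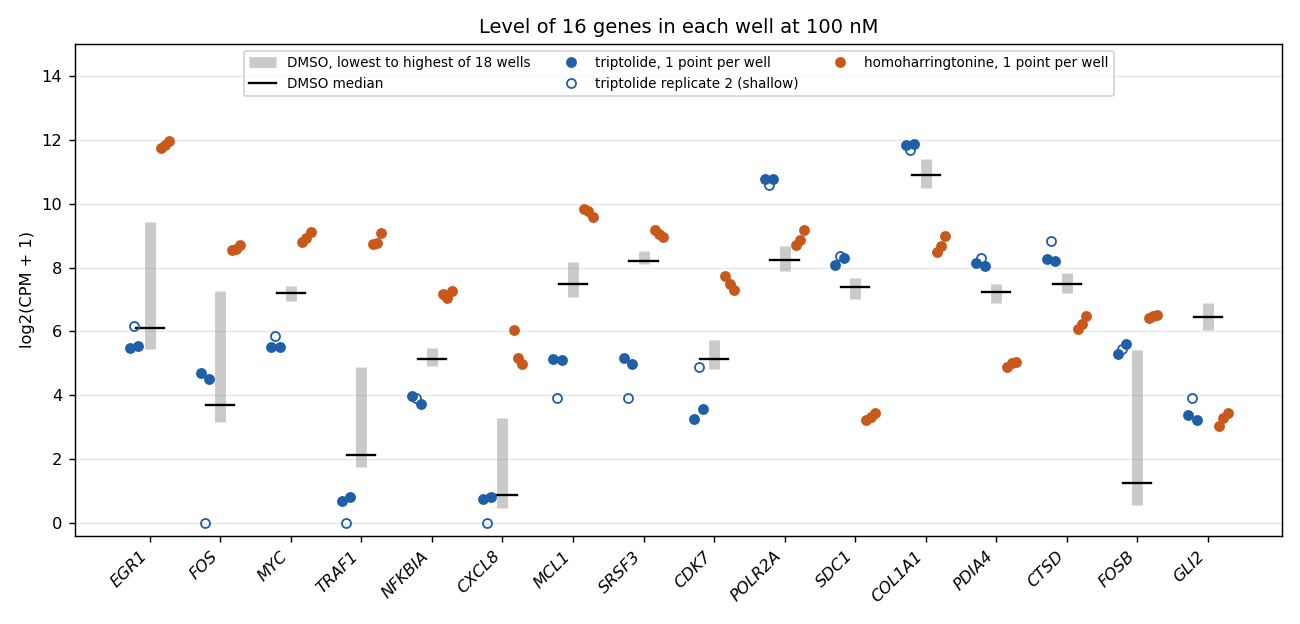
Level of 16 genes in each well at 100 nM, as log2(CPM + 1), with triptolide wells in blue (the shallow replicate 2 as an open circle), homoharringtonine wells in orange and the lowest to highest of the 18 DMSO wells as a grey bar with a line at the median. EGR1, TRAF1, MYC and MCL1 are high with homoharringtonine and low with triptolide, SDC1, COL1A1 and PDIA4 the reverse, and FOSB and GLI2 lie on the same side of DMSO with both compounds.

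Among protein-coding genes called with a mean of at least 10 CPM over the 6 wells and no overlap between the groups outside triptolide replicate 2, the 6 furthest apart on the triptolide side were SDC1, CCDC80, PCDHB5, IGSF3, B4GAT1 and APOLD1. SDC1 (chr2:20200797-20225433, minus strand, GRCh38, GENCODE), the heparan sulfate proteoglycan syndecan-1, was at 271, 325 and 316 in the triptolide wells and 8.31, 9.06 and 9.92 in the homoharringtonine wells. DMSO wells ran from 129 to 203 with a median of 168, so triptolide lay above and homoharringtonine below every DMSO well. The log2 fold change between the compounds was 5.15 ± 0.197 (SE, edgeR padj = 5.79e-12). CCDC80, a secreted matrix protein, followed the same pattern at 360, 382 and 323 against 13.4, 14.3 and 13.7 (DMSO 163 to 199, log2 fold change 4.78, edgeR padj = 7.85e-12). In contrast, PCDHB5, IGSF3 and B4GAT1 stood apart because homoharringtonine lowered them (log2 fold change against DMSO -5.04, -4.61 and -4.70), while triptolide was not called for any of the 3. PCDHB5, a clustered protocadherin, measured 38.7, 38.6 and 33.3 with triptolide and 1.25, 1.10 and 0.706 with homoharringtonine, against a DMSO median of 38.1. APOLD1 was at 29.7, 42.4 and 29.1 against 1.47, 0.972 and 1.12. Its DMSO median was 2.90, and it overlaps DDX47 on the same strand, so reads of the pair may be mixed.

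The opposite end was held by genes nearly silent under triptolide. TRAF1 (chr9:120902393-120929173, minus strand), a signalling adaptor of the TNF receptor family and a known NF-kB target, was at 0.609, 0 and 0.761 in the triptolide wells and 428, 436 and 538 in the homoharringtonine wells. DMSO wells had a median of 3.35, and their highest value, 28.3, was itself far below the homoharringtonine wells. The log2 fold change between the compounds was -9.27 ± 0.310 (edgeR padj = 2.35e-12), and homoharringtonine raised it over DMSO by 7.33. WNT9A, a secreted Wnt ligand, was at 1.19, 0 and 1.24 against 262, 259 and 299, and homoharringtonine alone was called against DMSO (log2 fold change 6.79, edgeR padj = 4.94e-20). LPAR6, a lysophosphatidic acid receptor gene that overlaps RB1 on the other strand, had 0 counts in the 3 triptolide wells and was at 36.5, 28.0 and 22.2 with homoharringtonine, at least 436-fold higher against a floor of 3 counts over the group. IRGM, which overlaps ZNF300 on the other strand, likewise had 0 counts with triptolide and was at least 337-fold higher with homoharringtonine. MUC5AC, a secreted mucin, had 1 count against 3993, a depth-corrected ratio of 1538 with an exact 95% counting interval of 276 to 60774. DNAH3, a dynein heavy chain that overlaps LDAF1 on the other strand, had 6 counts against 3339 (ratio 214, interval 98.4 to 585). Whether the strand was used in counting was not given in the sources used here, so the signal at LPAR6, IRGM and DNAH3 cannot be separated from transcripts of the overlapping genes.

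Immediate early transcription factors, which couple growth factor signals to later gene expression, came mostly out on the homoharringtonine side. Of 26 such genes, 25 passed the filter, and 17 were called higher with homoharringtonine against 2 higher with triptolide. Their median log2 fold change was -2.25 against -0.10 over all tested genes. Between the compounds, 27.4% of all genes tested were higher with homoharringtonine and 20.5% with triptolide. Against DMSO, homoharringtonine raised 19 and lowered 0, and triptolide raised 7 and lowered 5. The medians were 2.53 and 0.26, against -0.03 and -0.16 over all tested genes. Of all genes tested, homoharringtonine raised 15.6% and lowered 19.3%, and triptolide raised 11.4% and lowered 20.9%. The 5 of 26 lowered by triptolide are near that last share. These shares are the reference for counts against DMSO in the lists below. The comparisons with DMSO share the same 18 wells.

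EGR1, a zinc finger factor of the serum response, was at 44, 70.7 and 45.5 with triptolide and 3441, 3690 and 3975 with homoharringtonine. DMSO wells spread from 42.6 to 689 around a median of 68.3, which left triptolide inside and homoharringtonine above that range. The log2 fold change between the compounds was -6.17 ± 0.241 (edgeR padj = 7.15e-12), and that of triptolide against DMSO was not called (-0.55, edgeR padj = 0.474). FOS, a subunit of AP-1, was at 24.8, 0 and 21.7 against 374, 383 and 414 (DMSO 7.99 to 152, median 12.0). Triptolide was not called for FOS either (1.07, edgeR padj = 0.0802), while the difference between the compounds was -3.90. JUN, its partner in AP-1, was lowered by triptolide. Its levels were 37.6, 28.3 and 30.7 with triptolide, 395, 455 and 526 with homoharringtonine, and 84.4 to 263 in DMSO, which placed the compounds on opposite sides of all DMSO wells.

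MYC, a growth-promoting factor with a short-lived mRNA, also fell with triptolide and rose with homoharringtonine, at 44.9, 56.5 and 45.1 against 448, 488 and 554 with DMSO at 123 to 171. The 2 compounds differed by -3.27 on the log2 scale (edgeR padj = 5.62e-10). IER2 behaved alike (log2 fold change -1.97 with triptolide, 3.34 with homoharringtonine). FOSB was 1 of 6 members that both compounds raised, with ATF3, IER3, MAFF, NR4A2 and NR4A3. It was at 37.9, 42.4 and 48.0 with triptolide and 84.1, 87.9 and 89.7 with homoharringtonine over a DMSO median of 1.40, although 1 DMSO well reached 41.3. Both rises were called (5.19 and 6.15) and the difference of -0.85 between the compounds was below the fold threshold. The members called higher with triptolide were EGR3 (2.96) and NR4A2 (1.27), the latter an orphan nuclear receptor raised by both compounds, and the value of NR4A2 turned to -0.39 when scaled to mitochondrially encoded mRNAs. EGR3 was at 1.59, 0 and 3.42 against 0.264, 0.429 and 0.347, so it rests on low counts.

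Feedback inhibitors of MAP kinase signalling moved with these factors. Of 20 DUSP, Sprouty and related genes, 17 were tested (median -1.03). Higher with homoharringtonine were 9 (45%, against 27.4% of all genes tested), and 0 were higher with triptolide. DUSP2, a nuclear phosphatase of ERK, was at 3.51, 28.3 and 3.80 against 232, 244 and 262 (log2 fold change -5.84, edgeR padj = 3.77e-11). SPRY2, a cytoplasmic inhibitor of receptor signalling, differed by -2.33 and DUSP5 by -2.08. For both, homoharringtonine was called against DMSO (2.00 and 2.37) and triptolide was not.

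The NF-kB list showed the same direction with wider gaps. Of its 16 members, all tested, 13 were higher with homoharringtonine and 0 with triptolide, with a median of -3.06. Homoharringtonine raised 11 over DMSO, and triptolide lowered 5 (3 without triptolide replicate 2) and raised 0. Of all genes tested, homoharringtonine raised 15.6% and triptolide lowered 20.9%, and 3 of 16 is near that last share. With all wells, the 5 lowered by one compound and raised by the other were TRAF1, BIRC3, REL, NFKBIA and NFKBIE. Among the subunits, RELB (-4.40), REL (-3.77), NFKB2 (-3.19), NFKB1 (-2.94) and RELA (-1.96) all differed between the compounds. Of the inhibitors, NFKBIA, which encodes the IkB-alpha protein, was at 14.8, 14.1 and 12.3 against 143, 130 and 154 with DMSO at 29.1 to 43.3. The groups did not overlap, with a log2 fold change of -3.19 ± 0.211 (edgeR padj = 1.36e-09). BIRC3, an inhibitor of apoptosis whose window is printed above, was at 0.754, 0 and 0.0951 against 111, 93.4 and 56.4. TNFAIP3, the A20 feedback enzyme, differed by -4.59, with triptolide not called against DMSO (0.11, edgeR padj = 0.814). NFKBIZ, NFKBID and BCL3 were not called in any of the 3 comparisons, and NFKBID, NFKBIZ and BCL3 each held a kappaB match too.

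Cytokines and chemokines followed. Of 15 genes, 11 were tested, with 8 higher under homoharringtonine, 0 higher under triptolide and a median of -3.66. CXCL8, a neutrophil chemoattractant, was at 0.696, 0 and 0.761 against 64.5, 35.1 and 30.6 (log2 fold change -5.71, edgeR padj = 2.63e-09). Triptolide wells lay within or below the DMSO range of 0.381 to 8.70. LIF, an interleukin-6 family cytokine, was at 3.56, 0 and 3.99 against 188, 204 and 226 with DMSO at 17.8 to 38.4, so the compounds lay on opposite sides of DMSO. IL11, of the same family, was raised by both (1.29 and 4.65) and still differed by -3.28. CCL20 was raised by both (1.60 and 2.32) without a called difference, and CCL2 was lowered by both (-2.01 and -1.33). Both rest on low counts, with means over the 6 wells of 0.684 for CCL20 and 0.290 for CCL2.

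Of 11 EGFR ligands and receptors, 9 were tested. The ligands AREG, EREG and HBEGF and the receptor EGFR (-2.61, edgeR padj = 5.13e-09) were higher with homoharringtonine, and the receptor ERBB2 was higher with triptolide (1.87, edgeR padj = 3.44e-07). HBEGF, a ligand, was at 96.8, 70.7 and 80.2 against 289, 278 and 277 and above the DMSO range of 19.6 to 48.4 with both compounds. AREG differed by -3.77, and only homoharringtonine raised it. Of 18 TGF-beta, BMP and Notch response genes, 17 were tested. Higher with homoharringtonine were 8 (44.4%, against 27.4% of all genes tested), and 1, SMAD6, was higher with triptolide (3.53). Both compounds lowered SMAD6 below DMSO (-1.59 and -5.06), and its mean over the 6 wells was low at 1.48. INHBA, the activin A subunit, was at 13.9, 42.4 and 14.6 against 362, 330 and 301.

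**Figure D2:**
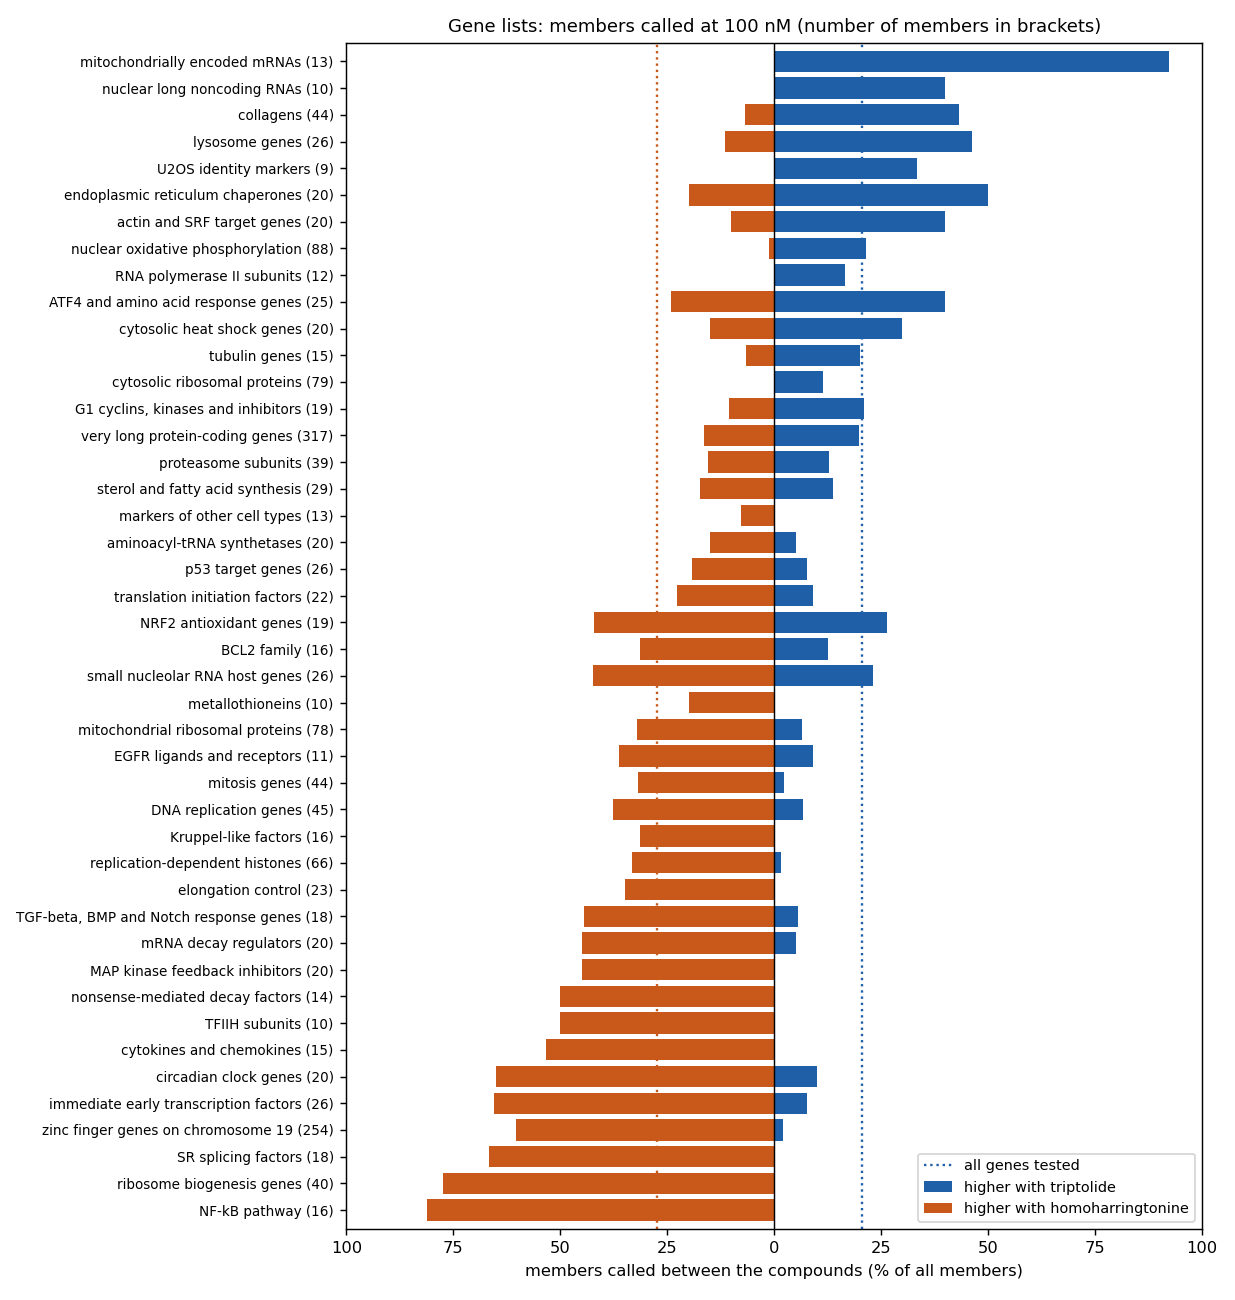
Share of the members of each gene list that were called higher with triptolide (blue, to the right) or higher with homoharringtonine (orange, to the left) at 100 nM, with members that did not pass the filter counted in the total and dotted lines at the shares of all genes tested. NF-kB pathway (13 of 16), ribosome biogenesis (31 of 40) and chromosome 19 zinc finger genes (153 of 254) stand on the homoharringtonine side, and mitochondrially encoded mRNAs (12 of 13), lysosome genes (12 of 26) and collagens (19 of 44) on the triptolide side. Scaled to mitochondrially encoded mRNAs, the median of lysosome genes was below 0 and that of collagens above it.

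The target of triptolide and the machinery around it did not move as a unit. ERCC3 was at 62.1, 84.8 and 53.4 with triptolide and 73.3, 76.7 and 70.9 with homoharringtonine, and only the 84.8 of the shallow well lay outside the DMSO range of 43.5 to 83.6. The log2 fold change between the compounds was -0.14 ± 0.178 (edgeR padj = 0.492). Of the 10 TFIIH subunit genes, 5 (50%, against 27.4% of all genes tested) were higher with homoharringtonine and 0 with triptolide (median -0.99). CDK7, the kinase of TFIIH, was at 8.49, 28.3 and 10.8 against 213, 179 and 157. It lay above the DMSO range of 27.2 to 52.2 with homoharringtonine and below it in the 2 deeper triptolide wells (log2 fold change -4.04, edgeR padj = 2.94e-10). MNAT1 (-1.90) and CCNH (-1.24), its partners in the kinase module, were likewise higher with homoharringtonine, as were GTF2H2 (-2.29) and GTF2H1 (-1.06).

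POLR2A, the largest subunit of RNA polymerase II, moved the other way. It was at 1752, 1526 and 1761 with triptolide and 417, 459 and 572 with homoharringtonine, with DMSO at 239 to 407. Every triptolide well lay above every other well. Triptolide raised it by 2.74 on the log2 scale (edgeR padj = 5.07e-16), homoharringtonine stayed under the fold threshold at 0.92, and the compounds differed by 1.89 ± 0.217. In TPM, a level corrected for transcript length, means were 319 with triptolide, 101 with homoharringtonine and 67.5 in DMSO. Of the 12 polymerase II subunit genes, 2 (16.7%, against 20.5% of all genes tested) were called on the triptolide side and 0 on the other. Their median of 0.35 turned to -1.28 when scaled to mitochondrially encoded mRNAs. Of 23 elongation control genes, 22 were tested, 8 (34.8%, against 27.4% of all genes tested) were higher with homoharringtonine and 0 with triptolide. Triptolide lowered CDK12, a kinase of the polymerase tail, by 2.45 where homoharringtonine was under the threshold at 0.96.

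The splicing and decay factors called between the compounds were lower with triptolide, other than 1 regulator of mRNA decay. Of 18 SR splicing factors, 12 (66.7%, against 27.4% of all genes tested) were higher with homoharringtonine and 0 with triptolide. Against DMSO triptolide lowered 8 and homoharringtonine raised 7, where the shares of all genes tested were 20.9% and 15.6%. SRSF3 was at 34.7, 14.1 and 30.4 against 575, 531 and 499 with DMSO at 273 to 365, a log2 fold change of -3.87 ± 0.219 (edgeR padj = 2.64e-10). SRSF1, the most abundant member, differed by -2.02. SRSF5 was not called, at 0.01 (edgeR padj = 0.959), or -1.60 when scaled to mitochondrially encoded mRNAs. Of 14 nonsense-mediated decay factors, 7 (50%, against 27.4% of all genes tested) were higher with homoharringtonine and 0 with triptolide. SMG9, a regulator of the SMG1 kinase, was at 4.29, 14.1 and 6.37 against 159, 173 and 202 with DMSO at 51.7 to 84.8. Of 20 regulators of mRNA decay, 9 (45%, against 27.4% of all genes tested) were higher with homoharringtonine and 1 with triptolide.

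Ribosome biogenesis and ribosomal protein genes were counted separately. Of 40 ribosome biogenesis genes, all tested, 31 were higher with homoharringtonine and 0 with triptolide (median -1.73). Homoharringtonine raised 20 over DMSO and triptolide lowered 12. UTP15, of the small subunit processome, was at 4, 0 and 4.66 against 81.9, 69.7 and 49.0. Of the 79 cytosolic ribosomal protein genes, 9 (11.4%, below the 20.5% of all genes tested) were higher with triptolide and 0 with homoharringtonine, with a median of 0.56 that turned to -0.95 when scaled to mitochondrially encoded mRNAs. RPS2 was at 6056, 6624 and 6332 against 2321, 2490 and 2981, a log2 fold change of 1.33 (-0.15 under that scaling). Of 78 mitochondrial ribosomal protein genes, 25 (32.1%, near the 27.4% of all genes tested) were higher with homoharringtonine and 5 with triptolide. Of 88 nuclear genes of oxidative phosphorylation 80 were tested, with 19 (21.6% of the list, near the 20.5% of all genes tested) higher under triptolide and 1 under homoharringtonine.

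Small nucleolar RNA host genes, many of whose spliced transcripts are decayed during translation, were split. Of 26, 25 were tested. Higher with homoharringtonine were 11 (42.3%, against 27.4% of all genes tested), and 6 (23.1%, against 20.5%) were higher with triptolide. SNHG1 differed by -3.64 and lay on opposite sides of DMSO (-2.42 with triptolide, 1.31 with homoharringtonine), while SNHG10 differed by 2.74 with the directions exchanged (1.15 and -1.51). Of 10 nuclear long noncoding RNAs, 9 were tested, with a median of 0.96 that turned to -0.69 under the mitochondrial scaling. Higher with homoharringtonine were 0, and 4 (40%, against 20.5% of all genes tested) were higher with triptolide. MIAT (3.56) and OIP5-AS1 (2.20) were among them, and for both it was homoharringtonine that was called against DMSO (-2.56 and -2.45).

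Translation factors were mixed. Of 22 initiation factor genes, 5 (22.7%, against 27.4% of all genes tested) were higher with homoharringtonine and 2 with triptolide. EIF4E, the cap-binding factor, is the gene that the study lists for homoharringtonine. It was at 40.3, 28.3 and 39.1 with triptolide and 141, 113 and 80.2 with homoharringtonine (log2 fold change -1.32 ± 0.223, edgeR padj = 5.77e-05). Neither compound reached the fold threshold against DMSO for EIF4E (-0.65 and 0.74). EIF1, which monitors start codons, was at 237, 268 and 266 against 1629, 1546 and 1393 and was called in opposite directions against DMSO (-1.21 and 1.32). EIF4A2, an RNA helicase of the same complex as EIF4E, differed by -3.14. EIF4EBP1, the inhibitor of EIF4E, was higher with triptolide by 2.40 and lowered by homoharringtonine (-1.91). Of 20 aminoacyl-tRNA synthetases, 3 (15%, against 27.4% of all genes tested) were higher with homoharringtonine and 1 with triptolide (0 without triptolide replicate 2). None was called against DMSO with either compound.

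Zinc finger genes on chromosome 19 are a clustered family of transcriptional repressors with related coding sequences. Of 254, 216 passed the filter, 153 were higher with homoharringtonine and 5 with triptolide (155 and 3 without triptolide replicate 2), with a median of -1.69. Homoharringtonine raised 102 and lowered 9, triptolide lowered 93 and raised 4, and 44 genes were lowered by triptolide and raised by homoharringtonine. ZFP30 was at 4.46, 0 and 3.23 against 191, 162 and 112 (log2 fold change -5.08, edgeR padj = 2.64e-10), and it overlaps ZNF540 on the other strand. Replication-dependent histone genes had 36 of 66 members tested, with a median of -1.22. Higher under homoharringtonine were 22 (33.3% of the list, near the 27.4% of all genes tested), and 1 was higher under triptolide. Without triptolide replicate 2 these counts were 23 and 2. Members of both families share sequence, and the estimated counts divide reads among near-identical copies, so single members are uncertain. The same holds for ribosomal protein, actin, tubulin and globin genes.

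Circadian clock genes were also higher with homoharringtonine in 13 of 20 (19 tested, 2 higher with triptolide, median -1.62). NR1D1, the REV-ERB-alpha repressor, was at 10.5, 14.1 and 10.5 against 188, 209 and 221, with triptolide not called against DMSO (-0.47, edgeR padj = 0.287). PER2 showed the same (0.08 with triptolide, 2.98 with homoharringtonine). BMAL2 was higher with triptolide (1.56, or -0.07 under the mitochondrial scaling). Of 16 Kruppel-like factors, 12 were tested, and 5 (31.25%, against 27.4% of all genes tested) were higher with homoharringtonine and 0 with triptolide. KLF10, a TGF-beta response factor, was at 67.8, 0 and 67.1 against 1001, 910 and 897. Of 10 metallothioneins, 6 were tested, and 2 (20%, below the 27.4% of all genes tested) were higher with homoharringtonine and 0 with triptolide.

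**Figure D3:**
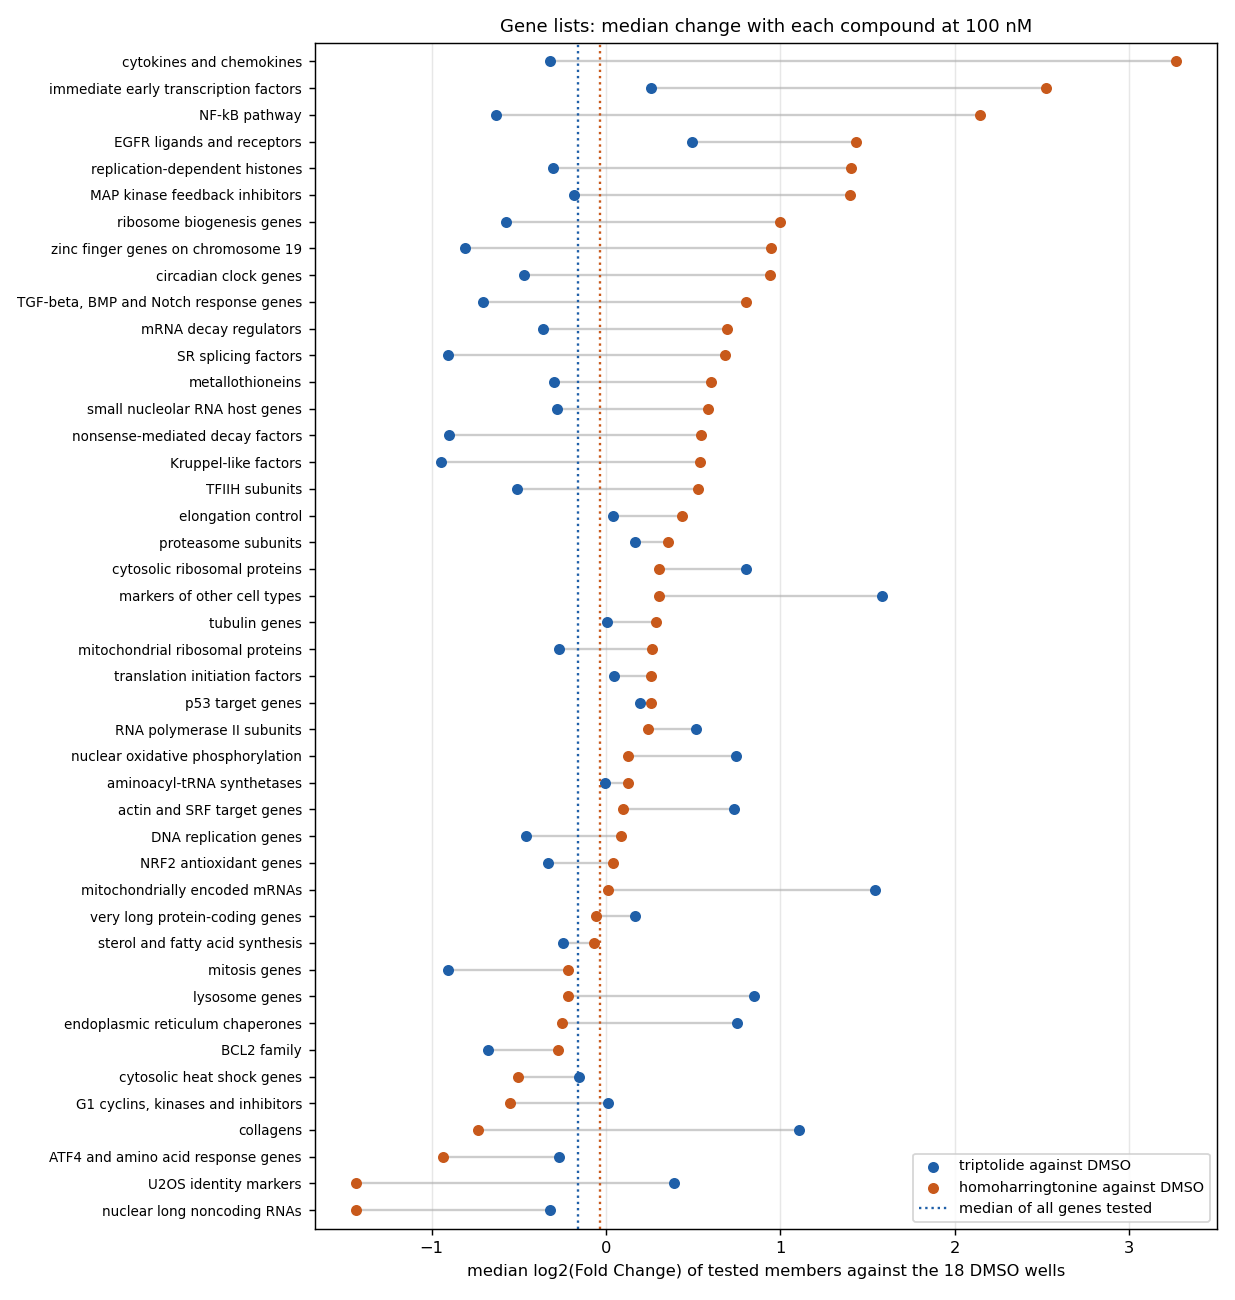
Median log2 fold change of each gene list against the 18 DMSO wells, triptolide in blue and homoharringtonine in orange, over the members tested in each comparison, with dotted lines at the medians of all genes tested. NF-kB pathway, chromosome 19 zinc finger genes and ribosome biogenesis genes lie below 0 with triptolide and above 0 with homoharringtonine, collagens and lysosome genes the other way, and mitosis genes below 0 with both. Both comparisons share the DMSO wells, and a scaling that moves the median of all genes moves every point with it.

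Matrix and secretory genes made up the other side of the contrast. Of 44 collagen genes, 30 passed the filter. Higher with triptolide were 19 (43.2%, against 20.5% of all genes tested), and 3 (COL10A1, COL15A1 and COL28A1) were higher with homoharringtonine. Their median of 2.09 stayed above 0 at 0.43 when scaled to mitochondrially encoded mRNAs. Triptolide raised 19 over DMSO and lowered 0, homoharringtonine raised 5 and lowered 13, and 9 genes were called in opposite directions. COL1A1, the main chain of type I collagen, was at 3650, 3307 and 3773 against 361, 412 and 502 with DMSO at 1440 to 2670. The compounds lay on opposite sides of all DMSO wells, with a log2 fold change of 3.15 ± 0.232 (edgeR padj = 4.55e-09). COL4A1 of the basement membrane was at 875, 707 and 911 against 42.6, 47.9 and 54.7, and COL11A1, a fibrillar collagen, at 87.5, 141 and 95.5 against 5.27, 6.29 and 6.60. SPARC, a collagen-binding matricellular protein, was at 2964, 2967 and 3163 against 280, 298 and 288 with DMSO at 1247 to 1752. VIM, the intermediate filament of mesenchymal cells, was not called. It was at 2161, 1860 and 2041 against 1911, 1886 and 2114, with overlapping wells and a log2 fold change of 0.12 (edgeR padj = 0.619) that turned to -1.39 under the mitochondrial scaling.

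Endoplasmic reticulum chaperones, which fold such proteins, were higher with triptolide in 10 of 20 (50%, against 20.5% of all genes tested). With homoharringtonine 4 were higher, and the median of 1.01 turned to -0.52 under the mitochondrial scaling. PDIA4, a disulfide isomerase, was at 279, 311 and 264 against 28.7, 31.3 and 31.7 with DMSO at 117 to 178. It was called in opposite directions against DMSO (1.15 and -2.09), and the compounds differed by 3.31 ± 0.177 (edgeR padj = 1.53e-10). HSPA5, the BiP chaperone, was at 872, 622 and 776 against 420, 417 and 328, a log2 fold change of 1.11 (-0.43 under the mitochondrial scaling), and homoharringtonine alone was called against DMSO (-1.06). The sensors and factors of the unfolded protein response had other directions: ERN1, which encodes IRE1-alpha, was raised by both compounds (1.16 and 3.55), and XBP1 was lowered by triptolide (-1.66) and under the threshold with homoharringtonine (0.68).

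Lysosome genes were called higher with triptolide in 12 of 26 (46.2%, against 20.5% of all genes tested). With homoharringtonine 3 were higher, and the median was 1.04 (-0.56 under the mitochondrial scaling). CTSD, the aspartic protease cathepsin D, was at 305, 452 and 291 against 66.6, 74.4 and 87.7 with DMSO at 145 to 227, on opposite sides of DMSO. CTSA showed the same with 241, 127 and 204 against 41.0, 45.1 and 47.6. The 3 members higher with homoharringtonine were not hydrolases. They were SQSTM1, an autophagy receptor (-2.15), and the transcription factors TFEB (-2.43) and TFE3 (-1.17).

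Of 20 actin and SRF target genes, 8 (40%, against 20.5% of all genes tested) were on the triptolide side and 2 on the other. The median was 0.82 (-0.70 under the mitochondrial scaling). ACTB was at 10204, 10711 and 10085 against 3481, 3602 and 3891, yet neither compound reached the fold threshold against DMSO (0.68 and -0.80). ACTA2, smooth muscle actin, was raised by triptolide by 2.87. FHL2 was higher with homoharringtonine (-2.43). Of 15 tubulin genes, 3 (20%, near the 20.5% of all genes tested) were on the triptolide side and 1 was on the other. TUBB, a beta-tubulin, was at 3243, 2981 and 3002 against 815, 930 and 982, and homoharringtonine lowered it (-1.76) while triptolide was not called against DMSO (0.00, edgeR padj = 0.98).

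The amino acid response was split. Of 25 ATF4 and amino acid response genes, 24 were tested. Higher with triptolide were 10 (8 without replicate 2), 40% against 20.5% of all genes tested. Higher with homoharringtonine were 6 (24%, against 27.4%). The median of 0.79 turned to -0.83 under the mitochondrial scaling. PSAT1, an enzyme of serine synthesis (2.50), and the transporters SLC7A11 (2.28) and SLC7A5 (1.92) had the widest differences on the triptolide side. SLC7A5, a leucine transporter, was at 1825, 2501 and 2020 against 514, 540 and 641. The homoharringtonine side held 4 transcription factors, DDIT3 (-2.28), CEBPG (-2.00), ATF4 (-1.36) and CEBPB (-1.21), and the transporters SLC7A1 (-2.05) and SLC38A2 (-1.14). ATF4 was at 562, 509 and 502 against 1390, 1414 and 1578, and only homoharringtonine raised it (1.32). CHAC1, a glutathione-degrading enzyme and a target of ATF4, was lowered by both compounds (-2.69 and -2.59), with a difference of -0.01 ± 0.272.

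Cytosolic heat shock genes were higher with triptolide in 6 of 20 (5 without replicate 2), 30% against 20.5% of all genes tested. With homoharringtonine 3 were higher, and the median was 0.11, or -0.02 when scaled by library size. DNAJB1, an inducible co-chaperone, was among the 3 higher with homoharringtonine (-2.10). Of 29 sterol and fatty acid synthesis genes, 28 were tested. On the triptolide side were 4 (13.8%, against 20.5% of all genes tested), and 5 (17.2%, against 27.4%) were on the other. HMGCS1, an early enzyme of sterol synthesis, was at 63.0, 28.3 and 55.9 against 1055, 872 and 453, a difference of -3.59 (edgeR padj = 1.91e-08). Of 19 NRF2 antioxidant genes, 8 (42.1%) were higher with homoharringtonine and 5 (26.3%) with triptolide, and of 39 proteasome subunit genes 6 (15.4%) and 5 (12.8%). The shares of all genes tested were 27.4% and 20.5%.

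Apoptosis regulators were not alike among themselves. Of 16 BCL2 family genes, 5 (31.25%, against 27.4% of all genes tested) were higher with homoharringtonine and 2 with triptolide. MCL1, a short-lived survival factor, was at 34.5, 14.1 and 33.3 against 905, 866 and 772 with DMSO at 134 to 289. It lay on opposite sides of all DMSO wells, with a log2 fold change of -4.48 ± 0.227 (edgeR padj = 1.13e-10). BCL2L1, which encodes the survival factor BCL-XL, was at 109, 113 and 136 against 56.3, 56.4 and 64.1 with DMSO at 207 to 297, so it was below DMSO in all 6 wells although only homoharringtonine passed the threshold (-1.86). Its difference between the compounds, 1.20, turned to -0.43 under the mitochondrial scaling. BCL2 (-2.65 and -2.12) and BMF (-3.02 and -2.83) were lowered by both compounds, and PMAIP1 (1.77 and 2.38) and BIK (1.55 and 1.61) were raised by both, none of these 4 with a called difference between them. Over the 6 wells BMF (mean 0.363), BIK (1.48) and BCL2 (1.83) rest on low counts, while PMAIP1 had a mean of 103.

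The p53 target list held 26 genes, all tested, with a median of 0.00. Higher under homoharringtonine were 5 (19.2%, below the 27.4% of all genes tested), and 2 were higher under triptolide. CDKN1A, the p21 inhibitor, was at 141, 155 and 138 against 522, 519 and 594, with triptolide not called against DMSO (0.11, edgeR padj = 0.464). AEN, an apoptosis-enhancing nuclease, was called in opposite directions (-1.43 and 2.28). MDM2, which marks p53 for degradation, was not called in any comparison.

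Of 44 mitosis genes, 14 (31.8%, near the 27.4% of all genes tested) were higher with homoharringtonine and 1, CDC25B, with triptolide (median -0.75). Triptolide lowered 20 and homoharringtonine 5, and 4 genes were lowered by both, among them PLK1 (-2.01 and -1.23) and CCNA2 (-1.69 and -1.65). Of all genes tested, triptolide lowered 20.9% and homoharringtonine 19.3%, so the 5 of 44 lie below the share of all genes. Both compounds lowered 4.78% of the genes tested in all 3 comparisons. CDC20, an activator of the anaphase-promoting complex, was at 211, 311 and 187 against 369, 397 and 465 with DMSO at 441 to 749. Triptolide lowered it (-1.21), homoharringtonine did not reach the threshold (-0.32), and the difference between them, -0.83, did not either. CCNF, cyclin F, was at 107, 84.8 and 106 against 100, 105 and 120 with DMSO at 206 to 293. All 6 wells lay below all DMSO wells, but both fold changes were just under the threshold (-0.95 and -0.98), and the difference was 0.12 (edgeR padj = 0.593), or -1.53 under the mitochondrial scaling.

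Of 45 DNA replication genes, 17 (37.8%, against 27.4% of all genes tested) were higher with homoharringtonine and 3 with triptolide (median -0.55). GINS3, a subunit of the replicative helicase, was among the 17 (-3.62). Of 19 G1 cyclins, kinases and inhibitors, 17 were tested. Higher with triptolide were 4 (21.1%, near the 20.5% of all genes tested), and 2 were higher with homoharringtonine. Without triptolide replicate 2 each of these counts was 3. The median of 0.48 turned to -1.19 under the mitochondrial scaling. CDKN2C, the p18 inhibitor, was at 30.6, 56.5 and 37.9 against 2.42, 2.89 and 2.65, and homoharringtonine alone was called against DMSO (-4.26).

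Shared and opposite directions were then counted over all genes. In the 16129 genes tested in all 3 comparisons, 408 were raised by both compounds and 771 lowered by both. A further 206 were raised by triptolide and lowered by homoharringtonine, and 572 were lowered by triptolide and raised by homoharringtonine. Without triptolide replicate 2, of 17074 genes these numbers were 452, 806, 311 and 561. Most changes were called for 1 compound, with 1149 raised and 2138 lowered by triptolide only and 1578 raised and 1582 lowered by homoharringtonine only, which does not show that the other compound had no effect. All these classes were counted under TMM scaling only. Under it triptolide raised 2112 genes over DMSO, against 1077 by library sizes and 140 when scaled to mitochondrially encoded mRNAs. The classes that hold rises with triptolide therefore depend on the scaling.

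Among protein-coding genes with a mean of at least 10 CPM over the 24 wells, the strongest shared rises, by the smaller of both fold changes, were in FOSB, LSR, CEMIP and PTGS2. LSR, a lipoprotein receptor of tricellular junctions, was at 130, 155 and 136 against 124, 139 and 174 with DMSO at 24.4 to 67.4. Both compounds raised it (2.40 and 2.44), the wells overlapped, and the difference was 0.04 ± 0.183 (edgeR padj = 0.873), or -1.59 under the mitochondrial scaling. PTGS2, the inducible cyclooxygenase, was at 9.27, 42.4 and 9.42 against 50.0, 38.9 and 28.9, with a DMSO median of 2.79. CEMIP, a hyaluronan-degrading protein, was at 8.41, 14.1 and 7.99 against 59.1, 58.9 and 67.4, with a DMSO median of 2.29. The strongest shared falls among the same genes were in MVB12B (-3.25 and -3.43), AKAP5 (-3.26 and -3.04), JAKMIP2 (-2.93 and -3.72) and GLI2. GLI2, a transcription factor of Hedgehog signalling, was at 9.51, 14.1 and 8.27 against 7.19, 8.81 and 9.92 with DMSO at 65.5 to 118. The wells of the compounds overlapped, and the difference was 0.25 (edgeR padj = 0.379), or -1.41 under the mitochondrial scaling.

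Among protein-coding genes with that minimum mean, the strongest opposite changes with triptolide above DMSO were in COL11A1, FBXL7, CHPF2 and FIBCD1. CHPF2, an enzyme of chondroitin sulfate chains, was at 41.0, 14.1 and 46.5 against 4.82, 5.06 and 5.85 with DMSO at 14.1 to 21.7. FIBCD1, an acetyl group-binding receptor of the cell surface, was at 104, 113 and 120 against 10.5, 12.9 and 14.5 with DMSO at 36.9 to 60.9. FBXL7 was listed at 0 in the shallow well and at 37.6 and 32.7 in the deeper ones, against 3.23, 3.40 and 4.59. The strongest with homoharringtonine above DMSO were in ANKRD1, ZNF438, LIF and ATXN7L2. ANKRD1, a nuclear ankyrin repeat protein and a target of YAP, was at 4.70, 0 and 4.95 against 951, 841 and 753 with DMSO at 72.0 to 141. The log2 fold change between the compounds was -7.27 ± 0.267 (edgeR padj = 4.06e-12), made of a fall of -3.99 and a rise of 3.36. ZNF438, a zinc finger gene on chromosome 10, was at 0.493, 0 and 0.856 against 44.2, 44.2 and 40.4.

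Gene type and length differed between the called sets. Long noncoding RNA genes made up 14.5% of the genes higher with triptolide, 6.55% of those higher with homoharringtonine and 9.15% of all tested. The protein-coding genes higher with triptolide had a median genomic span of 27.8 kb and those higher with homoharringtonine 37.9 kb, against 34.2 kb for all tested, while the median number of exons was 9 in each. By span, 24.8% of genes of 0 to 5 kb were called on the triptolide side and 22.3% on the homoharringtonine side. At 50 to 100 kb these shares were 16.6% and 31.9%, and at 100 to 200 kb 14.7% and 30.9%. Above 500 kb they were 26.4% and 21.8%. Of 317 such very long genes, 239 were tested, and the 63 higher with triptolide and 52 with homoharringtonine became 53 and 59 under RLE size factors and 52 and 63 by library sizes, so their direction depended on the scaling. TENM2, an adhesion receptor of neurons, was higher with triptolide (2.90) and SYNE1, a giant nuclear envelope protein, higher with homoharringtonine (-2.63).

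**Figure D4:**
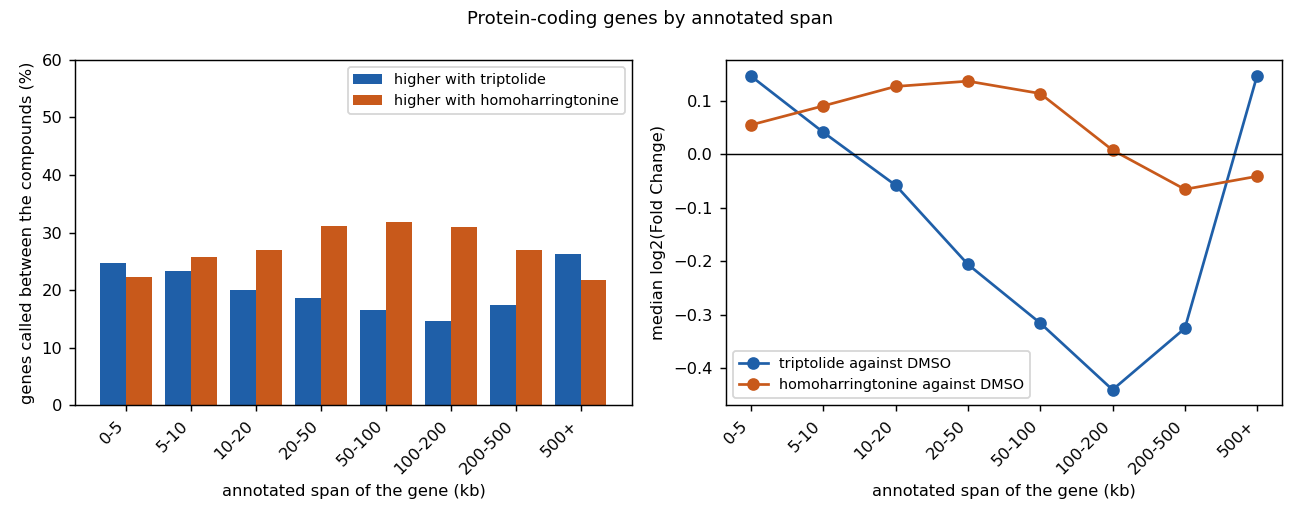
Protein-coding genes in bins of annotated span in kb: on the left the share called higher with triptolide (blue bars) or higher with homoharringtonine (orange bars) at 100 nM, on the right the median log2 fold change of each compound against DMSO. The homoharringtonine share runs from 22.3% in the shortest bin to 31.9% at 50 to 100 kb and back to 21.8% above 500 kb, and the triptolide median against DMSO runs from 0.15 in the shortest bin to -0.44 at 100 to 200 kb.

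At 1000 nM the contrast between the compounds was not the same. The difference of the contrast between the doses was called for 27.1% of 18441 genes, with 1508 genes (8.18%) where triptolide relative to homoharringtonine was higher at 1000 nM and 3481 (18.9%) where it was lower (1440 and 3460 without triptolide replicate 2). Scaled by library size, 19.5% of the called genes were in the higher set in place of 30.2%. Of the 26 immediate early genes, 24 were called in the lower set and 0 in the higher. EGR1 was at 0.935, 7.18 and 3.22 with triptolide and 6687, 5933 and 5486 with homoharringtonine at 1000 nM, which widened the contrast by 4.09 on the log2 scale. FOSB, raised by both compounds at 100 nM, was at 1.35, 1.21 and 1.10 against 276, 256 and 194, a change of the contrast by -6.39. FOS (-5.54), NFKBIA (-6.92), MCL1 (-3.00) and MYC (-1.99) changed in the same direction. MYC was at 2.30 ± 1.67 with triptolide and 111 ± 23.6 with homoharringtonine at 1000 nM (SD, n = 3), both lower than at 100 nM.

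POLR2A turned around. At 1000 nM it was at 223, 233 and 206 with triptolide, below all 3 homoharringtonine wells (849, 750 and 704), where at 100 nM triptolide had been above them. The change of the contrast was -3.30. For other genes the contrast was not called between the doses. SRSF3 was at 28.9, 30.2 and 28.9 against 553, 540 and 595 (difference between doses 0.02, edgeR padj = 0.963), and PDIA4 differed between doses by 0.16 (edgeR padj = 0.678). TRAF1, CXCL8, CDKN1A, CTSD, CDC20 and COL1A1 were not called between the doses either.

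**Figure D5:**
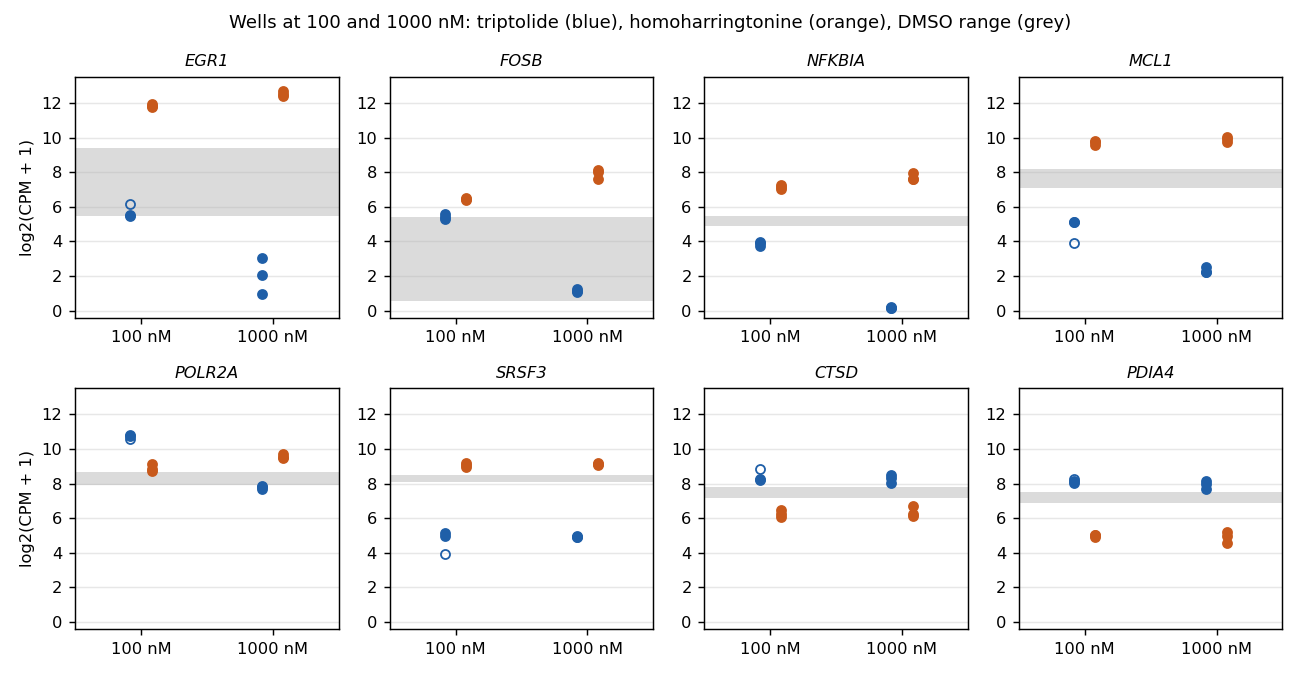
Levels of 8 genes at 100 nM and 1000 nM in each well, as log2(CPM + 1), with triptolide in blue (the shallow replicate 2 as an open circle), homoharringtonine in orange and the range of the 18 DMSO wells as a grey band. FOSB and POLR2A fall with triptolide between the doses and rise with homoharringtonine, while SRSF3 and PDIA4 stay at nearly the same levels.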

How the data were processed

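The wells were sequenced as bulk RNA libraries, and 30 samples of the series were used (6 at 100 nM, 6 at 1000 nM and 18 DMSO) and 42 were not. The authors deposited for each well an RSEM gene table with expected counts, TPM and FPKM on GRCh38 (RSEM, HTSeq and DESeq2 are named in the submitters' processing notes, without their order). The aligner, the annotation release and the strand setting were not given in the sources used here. The deposited expected counts, 60371 genes per well, were rounded to whole numbers, and library totals were summed over genes. The deposited TPM values were used only for levels compared between genes and for the mitochondrial share, and the FPKM column was not used. Gene symbols, spans and coordinates came from GENCODE 44, which matched 56104 of the gene identifiers.

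Genes were filtered with filterByExpr (smallest count 10), scaled by TMM and tested with the quasi-likelihood test of edgeR 4.0.16 in R 4.3.3, each comparison fitted on its own wells, with Benjamini-Hochberg adjustment over all genes tested. A gene was called at an adjusted p under 0.05 and a log2 fold change beyond 1. The dose difference was an interaction term over both compounds and doses. Alternatives were DESeq2 1.42.0, its size factors, library sizes only, other filters on low counts, scaling to the mitochondrially encoded mRNAs, a replicate block, and leaving out each well. Intervals and permutation tests used scipy 1.17.1 in Python 3.11.15. On simulated counts for the comparison of the compounds, 200 genes were changed, in both directions. There edgeR recovered 92% of genes changed 3-fold, 100% of those changed 8-fold and called 0.116% of unchanged genes. DESeq2 recovered 48% and edgeR with the replicate block 81% of those changed 3-fold. The simulation used a fixed dispersion and far fewer changed genes than the 47.9% called here, so its rates do not carry over to this contrast. Intervals and floors cover counting error only. Depth was 70767 to 34502864 counts with triptolide and 34975133 to 41740702 with homoharringtonine, so genes under about 14 CPM are not resolved in triptolide replicate 2.

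The 44 gene lists and the wells compared were chosen with earlier results of these data known. Named genes were the study's target and marker genes (ERCC3, EIF4E, CDC20, CCNF), the 6 protein-coding genes at either end of the contrast with a mean CPM of at least 10 and no overlap between wells of at least 1000000 counts, the most abundant and the most extreme called members of each list, the 4 strongest genes of each shared or opposite class, and members of lists of at most 26 genes.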

Additional observations from a re-analysis of the deposited data

Results flagged for a closer look

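The contrast of triptolide with homoharringtonine differed between 100 nM and 1000 nM for 1508 genes that were higher and 3481 that were lower at 1000 nM, by the edgeR test of the interaction. Among the 15 genes followed over both doses, this difference passed the test for FOSB (-6.39), NFKBIA (-6.92), FOS (-5.54), EGR1 (-4.09), POLR2A (-3.30), MCL1 (-3.00) and MYC (-1.99), each on the log2 scale and each lower at 1000 nM in all 3 triptolide wells than in any triptolide well at 100 nM, other than FOS, which was listed at 0 in the shallow triptolide well.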

How the results depend on the processing

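Scaled to mitochondrially encoded mRNAs, 428 genes were called higher with triptolide and 11402 with homoharringtonine, and against DMSO triptolide raised 140 and lowered 13780. Under that scaling 16 of the 120 named genes with a fold change turned negative, counting only genes called with either scaling: LSR (-1.59), MVB12B (-1.42), GLI2 (-1.41), NR4A2 (-0.39), NR4A3 (-1.52), BCL2L1 (-0.43), CCND1 (-0.27), CCNF (-1.53), SRSF5 (-1.60), BMAL2 (-0.0740), HSPA5 (-0.43), CALR (-0.23), CTSB (-0.018), VIM (-1.39), MT-CO1 (-0.10) and RPS2 (-0.15). By library sizes only, triptolide raised 1077 genes over DMSO, and 989 genes had a higher contrast at 1000 nM. With at least 10 counts in every well, only 1490 genes remained in the contrast because of the shallow well, with 209 higher under triptolide and 207 under homoharringtonine. That filter gave 17 raised and 106 lowered by triptolide, 826 raised and 1239 lowered by homoharringtonine, and 50 higher and 121 lower at 1000 nM. With no such filter triptolide raised 4183 and homoharringtonine 4523. DESeq2 called 1780 genes higher with triptolide, with 2555 adjusted values not given, and 926 with a higher contrast at 1000 nM.

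Leaving out 1 well at a time gave 2936 to 3678 genes higher with triptolide and 4682 to 5518 higher with homoharringtonine. Against DMSO it gave 1803 to 2594 raised and 3420 to 3785 lowered by triptolide, and 2870 to 2978 raised and 3366 to 3685 lowered by homoharringtonine. Without triptolide replicate 2, 311 genes in place of 206 were raised by triptolide and lowered by homoharringtonine, and 219 without the shallow DMSO replicate 10. With that well left out, the filter of 10 counts in every well gave 2814 and 3510 genes. Both of these last settings were added once the data had been seen.

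Whether the replicate numbers pair the wells was not settled. Deviations of wells with the same number correlated at -0.26 and -0.24 over 9632 genes. Only triptolide replicates 1 and 3 entered, so their deviations mirror each other, and the shallow well was not covered. These values therefore cannot decide the pairing. With the replicate number as a block, edgeR called 2953 and 4416 genes between the compounds, 1035 raised and 4021 lowered by triptolide, 3016 and 3445 by homoharringtonine, and 1338 and 3074 between the doses. Over all alternatives, 1627 values of named genes stayed on the same side of the threshold, 30 no longer passed it and 23 newly passed it. A change of sign in a gene called in neither fit was not counted.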
